A study of Mus musculus with 55 samples.

Results

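The 9 genes described here form the core of the Hedgehog pathway: the ligands Shh, Ihh and Dhh, the receptor side Ptch1, Smo and Hhip, and the transcription factors Gli1, Gli2 and Gli3. They were taken by name from the 47937 genes counted in bulk RNA-seq of pancreatic islets and followed through all 16 libraries. Islets came from C57B6/J male mice of 3 genotypes at 8 or 25 weeks of age. Wild type (WT) had 3 libraries at each age, mice heterozygous for Eed (HET) had 3 at 8 weeks and 2 at 25 weeks, and βEedKO had 3 at 8 weeks and 2 at 25 weeks. Eed is a core subunit of PRC2, the Polycomb complex that writes the repressive mark H3K27me3. In βEedKO, both floxed copies of Eed were removed by RIP-cre, an insulin promoter transgene active in β cells, so the other cells of the islet kept the gene. The sources used here do not say whether the WT and HET mice carried the cre. Each library held islets of 1 or 2 mice, except the 25-week βEedKO libraries, which each pooled at least 4 mice.

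Hedgehog ligands are secreted proteins that bind Patched on a receiving cell. Without ligand, Patched keeps Smoothened inactive. Bound ligand releases Smoothened at the primary cilium, and the GLI factors then turn on target genes, among them Ptch1, Hhip and Gli1 themselves. In the developing pancreas Shh is excluded from the early epithelium that forms the organ, and adult β cells are ciliated. All of this is background and not a result of these libraries.

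Each gene was first placed on the map of chromatin states that the authors made from wild-type islets with EpicSeg, in which every 200 bp bin of the autosomes carries 1 state letter (genome build GRCm38). States L and M are bivalent, that is marked by both H3K4me3 and H3K27me3, with L richer in H3K4me3 and M richer in H3K27me3. All 9 start sites lay in a bivalent bin, 7 in state L and 2 (Shh and Dhh) in state M. Over all genes on the map, 5127 of 42903 (12%) started in L or M, and these letters covered 0.541% and 1.23% of the segmented bases.

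Among the ligands, Shh (ENSMUSG00000002633.4) occupies chr5:28456815-28467256 on the minus strand, and state M covered 92.34% of its length. Ihh (ENSMUSG00000006538.10) lies at chr1:74945315-74951672 on the minus strand and Dhh (ENSMUSG00000023000.4) at chr15:98891152-98898540 on the minus strand. On the receptor side, Ptch1 (ENSMUSG00000021466.11) spans chr13:63508328-63573598 on the minus strand, Smo (ENSMUSG00000001761.7) chr6:29735503-29761365 on the plus strand, and Hhip (ENSMUSG00000064325.3) chr8:79965851-80058006 on the minus strand. Gli1 (ENSMUSG00000025407.6) is found at chr10:127329882-127341974 on the minus strand, Gli2 (ENSMUSG00000048402.14) at chr1:118834132-119053619 on the minus strand, and Gli3 (ENSMUSG00000021318.15) at chr13:15463235-15730026 on the plus strand. The unbroken stretch of bivalent or Polycomb-repressed bins (states K to O) around the start was longest at Gli2 (52 kb) and Ihh (49.6 kb) and shortest at Smo (10.6 kb) and Gli3 (13 kb). Among the 5127 genes that start in L or M the median stretch was 11.6 kb, so Gli2 and Ihh stood at percentiles 93.3 and 92.7, and Smo at 45.9.

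Ptch1 differed from the other 8 in having a second class of start. Its first annotated start, and another 138 bp further in, lay in state L, but 5 transcripts that begin 7863 to 9783 bp downstream started in state B, an active start-site state. The latter include the RefSeq start. The remaining 3 of its 10 annotated transcripts began within the gene body in states H and J, which mark elongation or enhancers. For no other gene did any annotated start lie in an active start-site state.

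**Figure D1:**
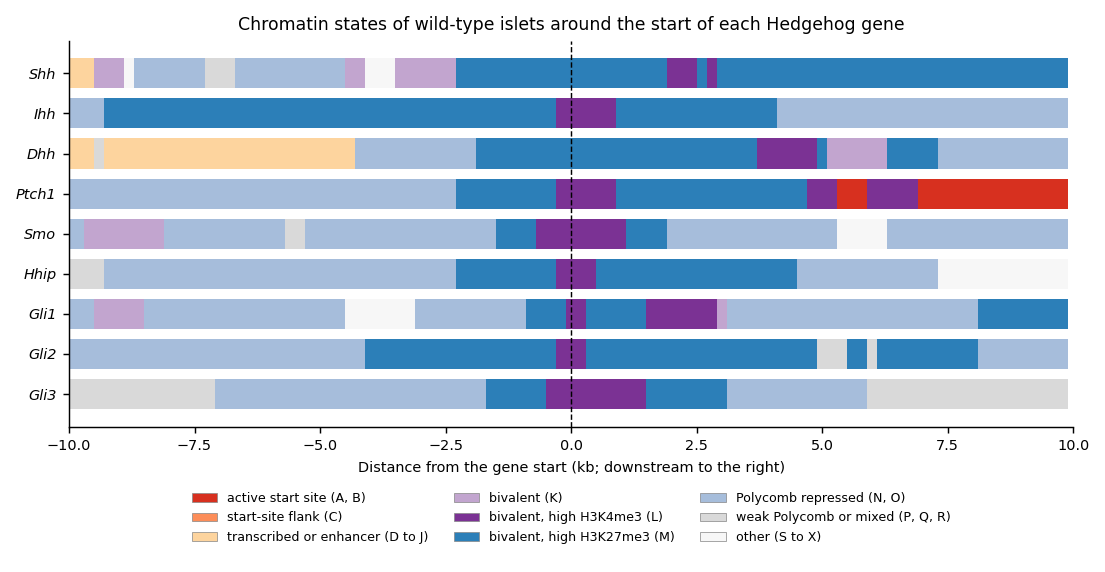
Chromatin states of wild-type islets in 200 bp bins (colour) within 10 kb of the start of each of the 9 genes, with distance from the start in kb on the x axis and downstream to the right. All 9 starts sit in a bivalent bin (purple for L, blue for M), and only Ptch1 has active start-site bins (red) within the window, in its first 10 kb downstream.

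Promoter sequence was taken from RefSeq on GRCm38.p6, where 7 of the 9 genes had an entry. The 250 bases before the start are printed below for 5 of them, 5′ to 3′, with CpG dinucleotides in capitals. Ihh and Gli2 are shown because the longest Polycomb stretches surround them, Hhip because it was the least abundant of the genes in knockout islets at 25 weeks, Ptch1 because its RefSeq start is the active one, and Dhh because it holds the fewest CpGs. The windows are chr1:74951673-74951922 (minus strand) for Ihh, chr1:119053620-119053869 (minus strand) for Gli2, chr8:80058009-80058258 (minus strand) for Hhip, chr13:63565736-63565985 (minus strand) for Ptch1, and chr15:98898541-98898790 (minus strand) for Dhh.
Ihh: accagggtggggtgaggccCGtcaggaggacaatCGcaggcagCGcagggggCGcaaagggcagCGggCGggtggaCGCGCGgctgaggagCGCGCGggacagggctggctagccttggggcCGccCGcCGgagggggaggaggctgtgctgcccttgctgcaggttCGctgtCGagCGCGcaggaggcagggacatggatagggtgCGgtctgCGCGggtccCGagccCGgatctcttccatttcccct
Gli2: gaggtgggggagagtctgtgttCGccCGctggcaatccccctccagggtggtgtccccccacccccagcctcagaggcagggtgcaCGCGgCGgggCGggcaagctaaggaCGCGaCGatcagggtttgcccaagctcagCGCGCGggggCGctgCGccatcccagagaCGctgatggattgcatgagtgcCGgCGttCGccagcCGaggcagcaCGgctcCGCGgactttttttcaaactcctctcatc
Hhip: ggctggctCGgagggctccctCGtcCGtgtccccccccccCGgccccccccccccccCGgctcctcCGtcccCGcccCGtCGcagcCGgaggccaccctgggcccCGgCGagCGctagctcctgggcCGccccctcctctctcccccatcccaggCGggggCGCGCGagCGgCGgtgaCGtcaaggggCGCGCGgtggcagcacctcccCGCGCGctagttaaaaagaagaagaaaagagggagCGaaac
Ptch1: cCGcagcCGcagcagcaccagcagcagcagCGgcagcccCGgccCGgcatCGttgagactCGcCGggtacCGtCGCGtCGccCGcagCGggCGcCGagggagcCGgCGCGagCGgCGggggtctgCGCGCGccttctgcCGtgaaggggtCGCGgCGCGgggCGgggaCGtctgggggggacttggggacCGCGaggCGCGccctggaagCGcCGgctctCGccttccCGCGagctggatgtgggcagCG
Dhh: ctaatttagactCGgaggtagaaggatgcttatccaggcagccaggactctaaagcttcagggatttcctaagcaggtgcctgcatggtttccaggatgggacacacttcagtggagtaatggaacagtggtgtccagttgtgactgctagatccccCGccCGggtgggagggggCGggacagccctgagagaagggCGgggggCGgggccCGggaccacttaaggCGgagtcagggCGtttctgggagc

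These stretches hold 24 CpGs in Ihh, 22 in Gli2, 28 in Hhip, 41 in Ptch1 and 9 in Dhh. Over the whole window of 300 bases, which adds 50 after the start, GC content was 72.67% in Ihh, 67.33% in Gli2, 73.67% in Hhip, 76.33% in Ptch1 and 61.67% in Dhh, against a median of 52.67% over 32851 windows. The ratio of observed to expected CpG was 1.088 in Ptch1 and 0.4383 in Dhh, with a median of 0.3836 over all windows. Gli3 and Smo gave ratios of 1.124 and 0.504. All 7 windows were thus above the median of all windows in GC content and in CpG ratio. The GLI consensus GACCACCCA, searched on both strands, was in none of the 7 windows and in 83 of 32851 overall (0.253%); other spellings of the motif were not searched.

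Libraries held 4645393 to 22925359 counted reads, with the smallest being WT replicate 2 at 25 weeks. A floor of 3 reads over a group was equivalent to 0.0571 to 0.0974 CPM (reads of a gene per 1000000 reads of the library, scaled with TMM factors), and intervals and floors below cover counting error only. The targeted gene, Eed, was at 23.9 to 33.1 CPM in WT and 13.4 to 14.9 CPM in βEedKO at 8 weeks, and at 19.3 to 28.3 and 14.2 to 15.6 CPM at 25 weeks, without overlap, although its change did not pass the test at either age (log2 fold change -1.04, adjusted p = 0.0881, and -0.69, adjusted p = 0.142, by edgeR). Transcripts of an islet's other cells are in every library. The summed level of 8 β cell markers was 122000 to 218000 CPM in the WT, HET and 8-week βEedKO libraries and 13900 to 17200 CPM in the 2 βEedKO libraries at 25 weeks. Those 2 libraries stood apart from each other in 8 markers of acinar cells, with 346000 CPM in replicate 2 and 11000 CPM in replicate 3. Values with and without each of them are therefore given for the calls below.

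Per length of exon, the 9 genes covered a wide range in healthy islets. In WT at 8 weeks, RPKM (CPM per 1000 bases of exon) averaged 2.56 ± 0.595 for Ptch1, 0.691 ± 0.674 for Smo, 0.271 ± 0.379 for Ihh, 0.106 ± 0.0719 for Gli3, 0.0889 ± 0.0999 for Dhh, 0.0321 ± 0.0212 for Gli2, 0.0229 ± 0.0112 for Gli1 and 0.00835 ± 0.00985 for Hhip (SD, n = 3), and no read of Shh was counted. Ptch1 alone stood clear of its neighbour in that order. From Smo down to Hhip, the libraries of each gene overlapped with those of the next. In βEedKO at 25 weeks the order was Ptch1 with 4.29 ± 0.293, Smo with 2.66 ± 0.702, Shh with 1.24 ± 0.143, Gli1 with 0.731 ± 0.0861, Ihh with 0.702 ± 0.393, Dhh with 0.243 ± 0.0717, Gli2 with 0.212 ± 0.0492, Gli3 with 0.0694 ± 0.00287 and Hhip with 0.0585 ± 0.0116 RPKM (SD, n = 2). Shh, last at 8 weeks in WT, thus ranked behind Ptch1 and Smo, while Gli1 and Ihh, and likewise Dhh and Gli2, overlapped between libraries. Among genes that start in the same state, Shh stood at percentile 77.1 in βEedKO at 25 weeks and at 47.7 in WT, and Gli1 at 44.7 and 26.1. The percentile was also higher in βEedKO for Ihh (43.9 and 20.7), Smo (72.3 and 56.5), Gli2 (25.4 and 13.6) and Hhip (13 and 0). It was lower in βEedKO for Dhh (53.3 and 68.2) and Gli3 (14.5 and 17.5), and nearly equal for Ptch1 (82 and 82.1). The WT percentile of Shh rests on 1 read over the 3 libraries, and in WT at 8 weeks it was 0.

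At 25 weeks, Shh and Gli1 rose in βEedKO islets, and every one of the 9 genes was higher in both βEedKO libraries than in any WT library. The calls numbered 2 of 9, taking an adjusted p under 0.05 over the 18685 genes of an edgeR quasi-likelihood fit. Of all genes tested, 4.58% were called higher and 6.6% in either direction, and of those that start in a bivalent state 17.3% were called higher (13.9% for L, 27.1% for M). A lack of overlap with WT, with βEedKO above, was seen for 9 of 9 against 24.7% of all genes. All 9 were likewise above both HET libraries, against 33.9%. For Gli3 the gap to HET was very small, with 0.646 CPM in βEedKO replicate 3 and 0.642 CPM in HET replicate 2. The median log2 fold change was 3.49 over the 9 genes, or 2.51 with Hhip set at its lower bound, and 0.03 over all genes. Genes that start in a bivalent state were also higher, with medians of 0.923 for L and 2.08 for M. The share without overlap was not computed among bivalent genes alone. In bulk islets, more cells of a type and more RNA per cell cannot be told apart.

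**Figure D2:**
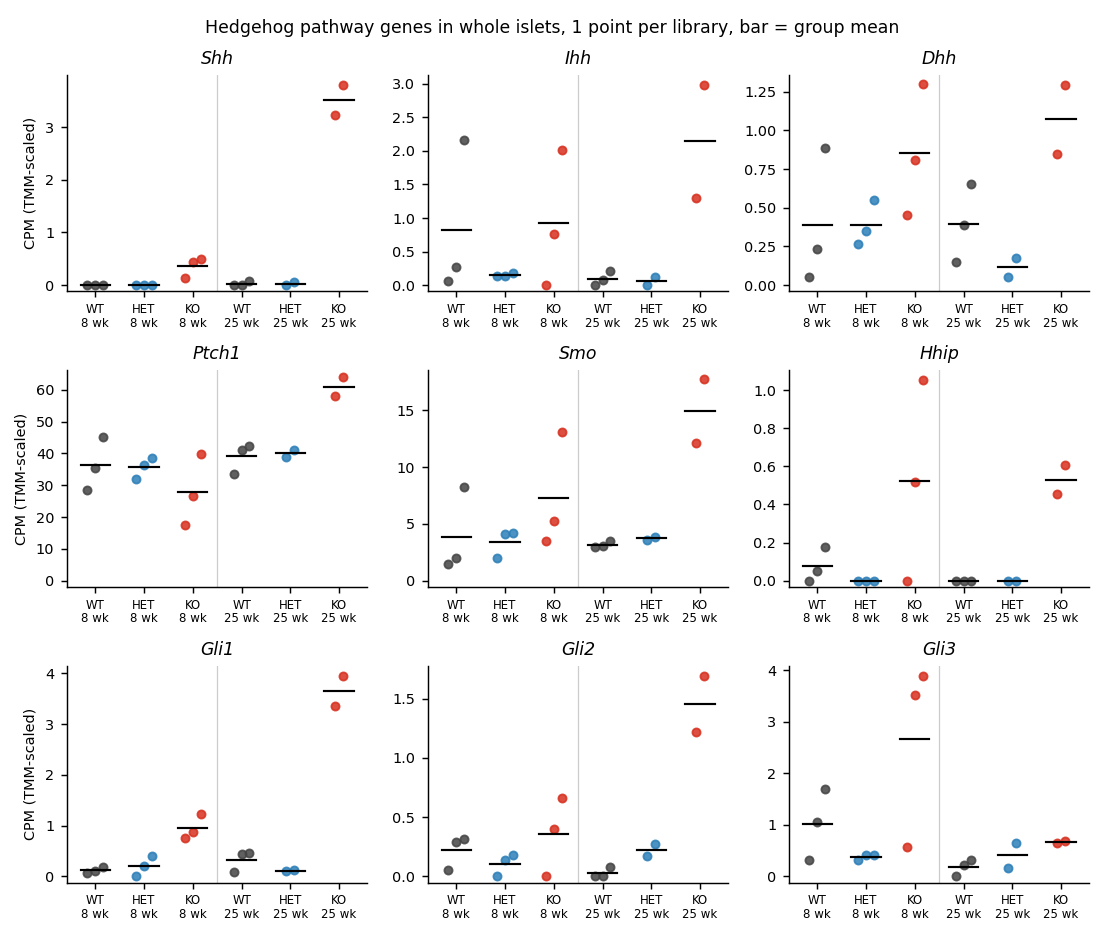
CPM (TMM-scaled, y axis, a separate linear scale in each panel) of the 9 genes in the 6 groups of genotype and age (x axis). Each point is 1 library and the bar is the group mean. The 2 βEedKO libraries at 25 weeks (red, right) lie above all 5 WT and HET libraries of that age in all 9 panels. Shh, for example, is at 3.23 and 3.8 CPM against at most 0.0752 CPM. For Gli3 the gap to HET is very small, at 0.646 against 0.642 CPM.

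Of the ligands, Shh, which patterns the neural tube and gut, was at or under 1 read in each control library. It was not counted in any of the 6 WT and HET libraries at 8 weeks, and at 25 weeks 1 read in WT replicate 3 and 1 in HET replicate 2 were the only ones. The βEedKO libraries held 3, 10 and 5 reads at 8 weeks (0.142, 0.502 and 0.433 CPM) and 50 and 80 reads at 25 weeks (3.8 and 3.23 CPM). All 5 knockout libraries were thus above all 11 control libraries, a pattern whose share over all genes was not computed. At 8 weeks the level was at least 5.92-fold higher than in WT, set against the floor of 3 reads over the group, but the test was not passed (adjusted p = 0.136). At 25 weeks the ratio to WT was 106 (95% interval 18.6 to 4200), and the log2 fold change was 6.43 ± 1.06 (SE, adjusted p = 0.0102).

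Shh shares exon bases on the opposite strand with 9530036O11Rik (446 bp) and Gm26894 (361 bp), and strand use in counting was not stated. 9530036O11Rik held 4 reads in WT and 12 in βEedKO at 25 weeks, and Gm26894 held 1 and 19, fewer than the 130 of Shh.

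Ihh, which acts in cartilage and gut, varied more between libraries of a group. At 8 weeks WT had 2.16, 0.0581 and 0.265 CPM in replicates 1, 3 and 4, HET had 0.138 to 0.177 CPM, and βEedKO had 0.759, 2.01 and 0 CPM in replicates 1, 4 and 5. WT and knockout overlapped fully at this age. At 25 weeks the 2 βEedKO libraries reached 1.29 and 2.99 CPM, above the highest control value of 0.218 CPM, with 91 reads against 2 in WT (ratio 37, interval 9.94 to 310). The log2 fold change of 4.72 ± 1.81 did not pass the test (adjusted p = 0.169).

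Dhh, the ligand that Schwann cells and Sertoli cells make, was low in all groups. Its CPM was 0.053 to 0.888 in WT, 0.266 to 0.551 in HET and 0.451 to 1.3 in βEedKO at 8 weeks, and 0.15 to 0.654, 0.0545 to 0.175 and 0.848 to 1.29 at 25 weeks. At 25 weeks, and not at 8, βEedKO was above WT and HET without overlap, while WT and HET overlapped. The log2 fold change against WT was 1.48 ± 1.01 (adjusted p = 0.467). The 6 markers of Schwann cells summed to 38.5 to 86.9 CPM in βEedKO and 19.9 to 88.7 CPM in WT at that age, and their part in the level of Dhh was not tested. Dhh shares 546 bp of exon with Rhebl1 on the same strand, which was at 2.1 CPM in WT and 3.66 CPM in βEedKO at 25 weeks (adjusted p = 0.459).

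On the receptor side, Ptch1, at once the ligand's receptor and a target gene of the pathway, was well expressed throughout. It held 28.4 to 45.2 CPM in WT, 31.9 to 38.6 in HET and 39.7, 26.5 and 17.4 in βEedKO replicates 1, 4 and 5 at 8 weeks. At 25 weeks it was at 33.6, 42.4 and 41.2 CPM in WT, 39 and 41.1 in HET and 63.8 and 58 in βEedKO. All groups overlapped at 8 weeks, and at 25 weeks βEedKO lay above WT and HET, which overlapped with each other. The change was the smallest of the 9 genes at 25 weeks (log2 fold change 0.59 ± 0.314, adjusted p = 0.337) and the only one below 0 at 8 weeks (-0.39 ± 0.284, adjusted p = 0.839).

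Smo, the transducer that Patched holds in check, was at 3.49, 3.01 and 3.02 CPM in WT, 3.87 and 3.62 in HET and 17.7 and 12.2 in βEedKO at 25 weeks. The knockout libraries were far above a tight set of 5 controls. From 534 reads against 95, the ratio to WT was 4.57 (3.67 to 5.74), and the log2 fold change of 2.19 ± 0.716 missed the threshold (adjusted p = 0.107). At 8 weeks WT and βEedKO overlapped (log2 fold change 0.92 ± 0.641, adjusted p = 0.824), and replicate 1 was the highest of its group in both. WT replicate 1 held 8.25 CPM beside 1.98 and 1.43 in replicates 3 and 4, and βEedKO replicate 1 held 13 beside 5.27 and 3.46 in replicates 4 and 5. With the replicate number as a block, Smo was called at 25 weeks (adjusted p = 0.0499).

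Hhip, a membrane protein that sequesters ligand, was not counted in any of the 5 HET libraries or the 3 WT libraries at 25 weeks, which allows up to 0.0974 CPM over the WT group of that age. At 25 weeks the βEedKO libraries held 6 and 15 reads (0.457 and 0.606 CPM), at least 5.69-fold more than WT (adjusted p = 0.195). At 8 weeks knockout replicates 4 and 5 reached 1.05 and 0.519 CPM while replicate 1 held none, beside 0 to 0.174 CPM in WT. Over the knockout groups, the ratio of 25 to 8 weeks was 1.08 (0.58 to 1.98).

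Of the transcription factors, Gli1, which depends on pathway input for its own expression and is used as its readout, separated the genotypes at both ages. Its CPM was 0.0634, 0.174 and 0.106 in WT, 0.209, 0.399 and 0 in HET and 1.23, 0.752 and 0.865 in βEedKO at 8 weeks. At 25 weeks it was 0.436, 0.451 and 0.0774 in WT, 0.109 and 0.117 in HET and 3.35 and 3.96 in βEedKO. As for Shh, all 5 knockout libraries were above all 11 control libraries, again without a share over all genes to set beside it. The ratio to WT was 8.38 (3.6 to 23.9) at 8 weeks, with 51 reads against 6, and 12.8 (6.56 to 28.6) at 25 weeks, with 142 against 9. The change passed the test at 25 weeks (log2 fold change 3.49 ± 0.705, adjusted p = 0.0163) and not at 8 (2.96 ± 0.68, adjusted p = 0.127). Gli1 shares 62 bp of exon with Arhgap9 on the opposite strand, which held 69 reads in WT and 143 in βEedKO at 25 weeks.

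Gli2, the main activator downstream of Smoothened, was at 0, 0 and 0.0774 CPM in WT, 0.272 and 0.175 in HET and 1.22 and 1.7 in βEedKO at 25 weeks. HET lay between WT and knockout without overlap at this age. The log2 fold change between knockout and WT was 5.16 ± 1.43 (adjusted p = 0.0603), from 58 reads against 1 (ratio 47.1, interval 8.13 to 1890). Against HET the log2 fold change was 2.66 ± 1.23 (edgeR, adjusted p = 0.202), from 58 reads against 8 (ratio 6.79, interval 3.23 to 16.5). At 8 weeks the knockout libraries held 0.664, 0.401 and 0 CPM against 0.053 to 0.317 in WT and 0 to 0.177 in HET. All groups overlapped at that age.

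Gli3, mostly a repressor, had lower means at 25 than at 8 weeks in βEedKO and in WT. In βEedKO it was at 0.569, 3.51 and 3.89 CPM at 8 weeks (replicates 1, 4 and 5) and at 0.685 and 0.646 CPM at 25 weeks. WT held 0.317, 1.05 and 1.69 CPM at 8 weeks and 0, 0.226 and 0.309 CPM at 25 weeks. HET held 0.311 to 0.418 CPM at 8 weeks (mean 0.381) and 0.163 and 0.642 CPM at 25 weeks (mean 0.403). In WT, the means of Gli2, Ihh, Smo and Hhip were also lower at 25 than at 8 weeks. Gli3 was the only gene of the 9 whose mean CPM was higher at 8 than at 25 weeks in both WT and βEedKO. Its change with age passed the test neither in βEedKO (log2 fold change -2.04 ± 0.99, adjusted p = 0.387) nor in WT (-2.26 ± 0.967, adjusted p = 0.489). Replicates 1 were the lowest of their groups in both, and the difference between genotypes did not pass the test at 8 weeks (log2 fold change 1.36 ± 0.828, adjusted p = 0.782) or at 25 (1.58 ± 1.05, adjusted p = 0.453).

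**Figure D3:**
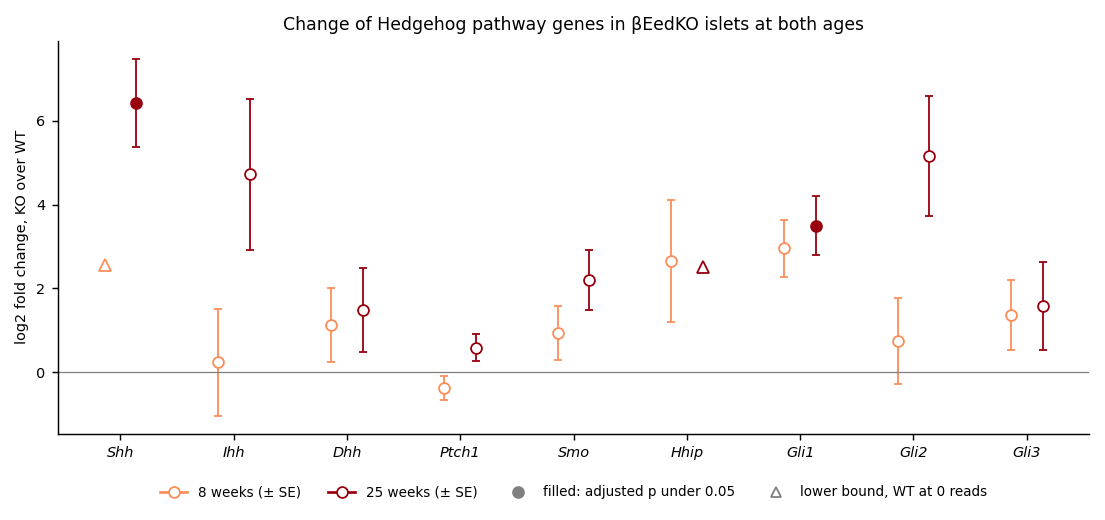
log2 fold change of βEedKO over WT (y axis) for the 9 genes (x axis) at 8 weeks (orange) and 25 weeks (dark red), with bars of 1 SE. Filled points passed the test (Shh at 6.43 and Gli1 at 3.49, both at 25 weeks), and open triangles are lower bounds where WT held 0 reads. All values at 25 weeks lie above 0.

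The calls of Shh and Gli1 at 25 weeks rested on few libraries. Leaving out βEedKO replicate 2 gave adjusted p-values of 0.0601 for Shh and 0.0693 for Gli1, and leaving out replicate 3 gave 0.0629 and 0.104, with log2 fold changes of 6.29 and 3.58, and of 6.53 and 3.36. Without WT replicate 4, Gli1 was lost (adjusted p = 0.0514) and Shh kept (0.0499). With the replicate number as a block, their adjusted p-values were 0.0699 and 0.0807. All 9 log2 fold changes at 25 weeks were above 0 in each of 18 alternatives (17 for Hhip). The lack of overlap given above nearly fixes this sign when a library is left out, so it adds little. By DESeq2, Gli2 (adjusted p = 0.0296) and Smo (0.0323) were called beside Shh and Gli1, in a fit that called 11.3% of all genes.

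At 8 weeks, 0 of the 9 genes were called between βEedKO and WT, where 0.428% of all genes were called higher and 0.434% in either direction. Among genes that start in a bivalent state, 2.02% were called higher (1.83% for L, 2.55% for M). Gli1 and Shh had an unadjusted p under 0.05, as had 7.87% of all genes, and DESeq2 called both (adjusted p = 0.0205 and 0.037) with 2.17% of all genes. They were also the 2 of 9 that did not overlap with WT, against 6.54% of all genes with βEedKO above. Against HET, 3 of 9 were above without overlap (Gli1, Shh and Gli3; 12.7% of all genes), and Shh passed the test (at least 5.87-fold above the HET floor, adjusted p = 0.043), in a comparison that called 4.74% of all genes.

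The effect of genotype was compared between the ages by an interaction term. None of the 9 differences passed the test (0 of 9, against 0.198% of all genes in either direction), by edgeR or by DESeq2. The fitted difference was above 0 for all 9 genes. For Shh and Hhip its sign was not measured, since WT held 0 reads of Shh at 8 weeks and of Hhip at 25 weeks. The difference had an unadjusted p under 0.05 for Gli2 (log2 difference 4.41 ± 1.81) and for Ptch1 (0.97 ± 0.424), as had 7.76% of all genes. Adjusted p-values were 0.574 for Gli2 and 0.618 for Ptch1. With HET in place of WT as control, or with both pooled, the sign for Gli3 turned (-2.06 and -0.75), and with the replicate block that for Gli1 did (-0.40).

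Between 8 and 25 weeks within βEedKO, 0 of 9 genes passed the test, with 1.5% of all genes called. The log2 fold change was 3.23 ± 0.799 for Shh (adjusted p = 0.113), 1.88 ± 0.631 for Gli1 (0.206) and 1.08 ± 0.312 for Ptch1 (0.141), all 3 with an unadjusted p under 0.05, as had 14.1% of all genes, and DESeq2 called Shh and Ptch1 with 5.21% of all genes. Ptch1 was also called by edgeR without βEedKO replicate 1 at 8 weeks (log2 fold change 1.42, adjusted p = 0.0446). Without overlap, 4 of 9 (Shh, Gli1, Ptch1 and Gli2) were higher in both 25-week libraries than in the 8-week ones, against 17.3% of all genes. Within WT, 0 of 9 and 0% of all genes were called, with 1 of the 9 under an unadjusted p of 0.05 (Gli3, log2 fold change -2.26) and 1898 of all genes, and DESeq2 called 0 of 9 and 137 of all.

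HET libraries gave no call against WT at either age, 0 of 9 and 0% of all genes by edgeR. None of the 9 had an unadjusted p under 0.05 or was called by DESeq2, although 2743 and 210 genes had such an unadjusted p at 8 and 25 weeks and DESeq2 called 413 and 3. At 25 weeks, Gli2 and Smo were above WT without overlap in HET, 2 of 9 against 8.91% of all genes. For Smo the gap was small, with 3.62 CPM the lowest in HET and 3.49 CPM the highest in WT. For Gli2 it was 8 reads over both HET libraries against 1 over the 3 WT libraries.

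The 3 further lists, chosen from knowledge of the pathway and with earlier results of these data known, hold the genes around this core. Their counts beside the share of all genes are therefore a description. Of the genes for ligand processing and co-reception, 2 of 10 tested rose at 25 weeks (4.58% of all genes were called higher) and 0 fell, with a median log2 fold change of 0.71. They were Gpc3, a glypican that competes with Patched for ligand (2.66 ± 1.37 CPM in WT, n = 3, and 15.2 ± 2.44 in βEedKO, n = 2, SD; log2 fold change 2.51, adjusted p = 0.0081), and Scube3, a secreted protein of the family that helps to release ligand (1.2 ± 0.112 and 6.32 ± 0.541 CPM; 2.32, adjusted p = 0.0274). Cdon, a co-receptor and the most abundant of the list in WT (47 ± 11.3 CPM, n = 6), was at 44.5 ± 12 and 51.5 ± 7.11 CPM at 25 weeks (adjusted p = 0.839).

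Of 32 intracellular and ciliary regulators, 1 rose, a share under the 4.58% of all genes, and 1 fell at 25 weeks, with a median of -0.15. Arrb1, a β-arrestin that binds Smoothened, rose from 11.6 ± 3.47 to 38.3 ± 8.62 CPM (log2 fold change 1.67, adjusted p = 0.0238). Ift88, a subunit of the transport complex that builds cilia, fell from 48.3 ± 2.87 to 15.1 ± 0.798 CPM (log2 fold change -1.73, adjusted p = 0.000966; 2.02% of all genes were called lower). Both βEedKO libraries were at 14.5 and 15.7 CPM for Ift88, under every WT library. Prkar1a, a regulatory subunit of protein kinase A and the most abundant of the list, was at 468 ± 41 and 597 ± 159 CPM (adjusted p = 0.663). Sufu, which holds GLI factors in the cytoplasm, was at 11.8 ± 2.34 and 11.7 ± 0.0654 CPM (adjusted p = 0.941).

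Of 12 genes known as targets of the pathway in various tissues, 5 rose (against 4.58% of all genes) and 0 fell at 25 weeks, with a median log2 fold change of 1.99. The largest changes were in forkhead factors that Hedgehog input induces in gut mesenchyme. Foxf1 went from 1.09, 1.5 and 1.86 CPM in WT to 18.1 and 39.8 in βEedKO (log2 fold change 4.18, adjusted p = 0.000966). Foxf2 went from 0, 0.226 and 0.232 CPM to 5.4 and 8.76 (5.17, adjusted p = 0.00397). Foxl1 was not counted in WT or HET at 25 weeks and held 81 and 262 reads in βEedKO (6.16 and 10.6 CPM), at least 92.9-fold above the WT floor (adjusted p = 0.00382). All 3 kept their call in each of 18 alternatives. Mycn, a transcription factor of the Myc family, and Bcl2, an inhibitor of cell death, also rose (2.38, adjusted p = 0.0239, and 1.68, adjusted p = 0.0215). Ccnd2, a cyclin and the most abundant of the list, was at 513 ± 31.9 and 274 ± 89.8 CPM (adjusted p = 0.129).

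Foxf1 and Foxf2 had already risen at 8 weeks, the only genes of the 3 lists called at that age. Foxf1 was at 1.34 to 2.38 CPM in WT and 5.6 to 11.4 CPM in βEedKO (log2 fold change 2.32, adjusted p = 0.0463), and Foxf2 at 0 to 0.116 and 1.38 to 1.64 CPM (4.53, adjusted p = 0.0401). At that age the summed level of 8 mesenchymal markers was also higher in βEedKO (85 to 173 CPM) than in WT (43.9 to 74.5 CPM), and their part in these changes was not tested. Both calls were near the threshold. They were lost in 12 and 10 of 18 alternatives, the replicate block among them (adjusted p = 0.265 and 0.402), and on leaving out any 1 of the 3 WT libraries or βEedKO replicate 4 or 5 of that age (adjusted p between 0.0769 and 0.238). Leaving out single libraries of 25 weeks, which share the estimate of spread, also lost them, Foxf1 with any of those 5 and Foxf2 with any but WT replicate 2 (0.0584 to 0.109). Of the other calls at 25 weeks, Ift88 was kept in each of 18 alternatives, and Gpc3 in 17, being lost without βEedKO replicate 2 (adjusted p = 0.0624). With the replicate block, Mycn (adjusted p = 0.108), Bcl2 (0.0681) and Scube3 (0.0794) lost their calls. Mycn, Bcl2, Scube3 and Arrb1 were lost in 4 to 6 alternatives in all, Scube3, Bcl2 and Arrb1 without either βEedKO library of that age (adjusted p between 0.0737 and 0.169), all 4 without WT replicate 3 or 4, Mycn without βEedKO replicate 2 (0.232) and Scube3 also without WT replicate 2 (0.0605).

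**Figure D4:**
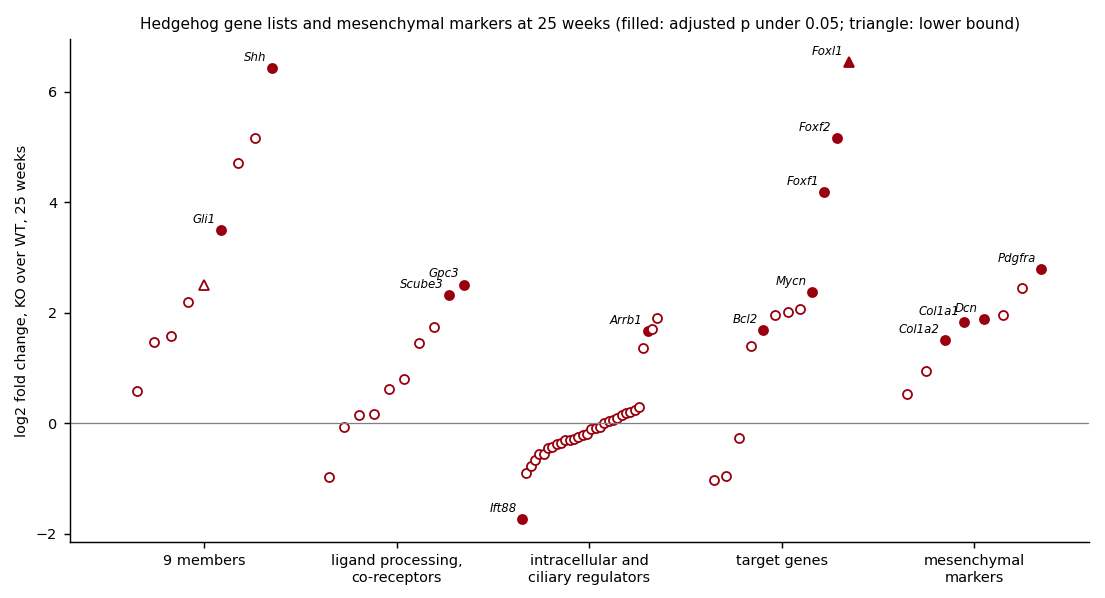
log2 fold change of βEedKO over WT at 25 weeks (y axis) for each tested gene of the 9 members, the 3 wider Hedgehog lists and 8 mesenchymal markers, each sorted from low to high. Filled symbols passed the test and are named, and triangles are lower bounds where WT held 0 reads. Calls number 2 of 9, 2 of 10, 2 of 32, 5 of 12 and 4 of 8.

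Markers of some other cells moved with these genes. At 8 weeks 8 mesenchymal markers summed to 43.9 to 74.5 CPM in WT and 85 to 173 CPM in βEedKO, without overlap, and all 8 had a log2 fold change above 0 (median 1.23), of which 0 passed the test (Pdgfra 2.53, adjusted p = 0.0881). Of the same 8 markers, all were above 0 and 4 rose at 25 weeks (Col1a1, Col1a2, Pdgfra and Dcn), with a median log2 fold change of 1.86, and their summed level was 91.4 to 134 CPM in WT, 44.9 to 117 in HET and 270 to 404 in βEedKO. Those of macrophages summed to 97.7 to 182 CPM in WT and 181 to 461 in βEedKO, an overlap, and those of ducts to 265 to 323 and 560 to 710. Of 8 macrophage markers, 8 were above 0 and 2 called higher, and of 6 duct markers 4 and 2 (4.58% of all genes were called higher). Alpha cell markers summed to 8340 to 9350 CPM in WT and 12100 to 12700 in βEedKO (5 of 6 above 0, 2 called). Endothelial markers overlapped, at 407 to 475 and 421 to 508 CPM (5 of 8 above 0, 0 called). No marker in these lists was at 0 in a whole group. The part of these cells in the levels of the Hedgehog genes was not tested. In 1 HET library at 8 weeks (replicate 2) the mesenchymal sum was 212 CPM, higher than the 85 to 173 CPM of the 3 βEedKO libraries of that age. That library held 0.399 CPM of Gli1, 0.311 of Gli3, 0.266 of Dhh and no read of Shh, each below all 3 of those βEedKO libraries, as were Foxf1 (0.799 CPM) and Foxf2 (0.177 CPM). Its 4.08 CPM of Smo, 31.9 of Ptch1, 0.177 of Gli2, 0.177 of Ihh and 0 of Hhip lay within the range of those libraries or at its lower end. Among the WT and HET libraries at 8 weeks, it had the highest Gli1 and Foxf2 and the lowest Foxf1 and Gli3. It is 1 library.

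**Figure D5:**
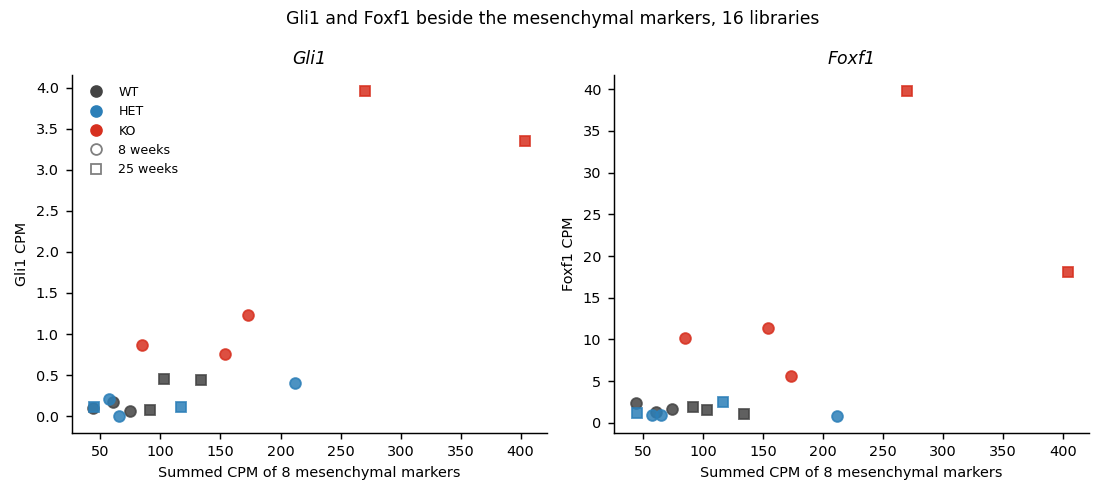
CPM of Gli1 (left) and Foxf1 (right) on the y axes against the summed CPM of 8 mesenchymal markers on the x axis, 1 point per library, with genotype by colour and age by symbol. The 2 βEedKO libraries of 25 weeks lie furthest to the right, at 270 and 404 CPM, and the HET library at 212 CPM lies below every βEedKO library for both genes. Among the WT and HET libraries of 8 weeks, that HET library has the highest Gli1 and the lowest Foxf1. The 2 genes were chosen for the plot after their values were seen.

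Over the 16 libraries, the patterns of the 9 genes were compared by Pearson's r of log2 CPM, as a description, since the libraries share groups and depth. Among pairs of members, r was highest for Gli1 and Shh (0.891), then Gli2 and Smo (0.811) and Shh and Hhip (0.797), and lowest for Gli3 and Ptch1 (-0.398). Of all genes, those most like Shh were Lhx2 (0.982), Vax2 (0.98) and Pou3f3 (0.977), transcription factors of the developing eye and brain, of which 2 start in state M and 1 in L. Most like Gli1 were Tfap2a (0.929), Lhx6 (0.922) and Slc17a6 (0.921), and among those most like Gli2 were Fbn2 (0.904) and Nt5e (0.886), all 5 with a start in L or M. The genes nearest to Gli3 started in other states in 2 of 3 cases, Rab35 (0.949) and Zfp64 (0.937) in the active state A and Osbpl3 (0.936) in L. None of these 3 was called at 25 weeks.

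Ptch1 was followed most closely by Afmid (0.924), Sned1 (0.903) and 4632427E13Rik (0.901), and Smo by Gabre (0.926), Sema4g (0.925) and Smim6 (0.915). For Ihh these genes were Gal3st2 (0.949), Ckmt1 (0.932) and Gdpd2 (0.923), for Dhh Dnaaf3 (0.895), Dok1 (0.889) and Adam11 (0.876), and for Hhip Serpina3f (0.98), Wnt16 (0.939) and Acan (0.939). Leaving out both βEedKO libraries of 25 weeks lowered r to 0.932 for Shh with Lhx2 and to 0.837 for Gli1 with Tfap2a, and left it at 0.98 for Hhip with Serpina3f.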

How the data were processed

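Bulk RNA-seq of whole islets (TruSeq RNA v2) was analysed in 16 libraries of 6 groups. Gene-level raw counts were deposited by the authors, who aligned to GRCm38 with TopHat2 2.0.13 and counted reads by featureCounts of Subread version 1.5.0-p1 on Gencode gene models. Strand use in counting was not given in the sources used here. A segmentation of wild-type islet chromatin by EpicSeg, also deposited, gives a state letter per 200 bp bin and holds no measured level. No count column was left unused (0). Names, positions and starts came from a later GENCODE release of that build (M21), in which 47224 of the 47937 counted identifiers were found and 713 were not. The single cells and the ChIP-seq tracks were not analysed here.

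The count model was edgeR 4.0.16 (limma 3.58.1) in R 4.3.3, and DESeq2 1.42.0 served as an alternative. With filterByExpr by group, 18685 genes were kept in the 11 WT and βEedKO libraries, which gave the genotype and age comparisons, and 18828 in all 16, which gave those with HET. All 9 members passed. The test was quasi-likelihood on TMM-scaled libraries, with Benjamini-Hochberg adjustment over all genes and a call at an adjusted p under 0.05. SE is the absolute log2 fold change over the square root of F. Ratios pool reads over a group, with exact 95% binomial intervals. Likeness is Pearson's r of log2 CPM with a prior count of 2. The scripts were tested on simulated counts.

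Alternatives were library size alone, DESeq2, no filter, a replicate block, all 16 libraries, other controls, and leaving out each library. Deviations from the group mean were compared between wild-type and βEedKO libraries of 1 age, and those of the same number had r = 0.457, 0.163, 0.176 and 0.255 over 18828 genes. All 4 being over 0.1, the numbers were used as pairs in the replicate block, an alternative, while the main fit had no block. Libraries of different number reached 0.45, and no label says that a number marks a litter. With 2 βEedKO libraries at 25 weeks, their deviations mirror each other, so the 2 values of that age are not independent. No 2 libraries of a group agreed within sampling noise. Replicates hold islets of different mice. The members, the lists and the tests were chosen with earlier results of these data known. The text names all 9 members, the called and the most abundant genes of the 3 wider lists, Sufu (chosen after its values were seen), Eed, for each member the 3 genes most like it (1 of them is not reported here), and markers where they move with a result.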

Additional observations from a re-analysis of the deposited data

How the results depend on the processing

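The number of the 9 genes called at 25 weeks, 2 as reported, was 4 by DESeq2 (which called 11.3% of all genes, against 6.6%), 4 without a filter on low counts (4.44%), 6 with WT and HET pooled as control (14.1%), 1 with the replicate block (5.5%; Smo gained, Shh and Gli1 lost), 3 with all 16 libraries fitted (8.99%), and 0 to 3 on leaving out 1 library (0 without βEedKO replicate 2 or 3 of 25 weeks, 1 without WT replicate 4). At 8 weeks, 0 as reported, it was 2 by DESeq2 (2.17%) and 1 with pooled controls (2.67%) or HET as control (4.74%). Between the ages in βEedKO, 0 as reported, it was 2 by DESeq2 (5.21%) and 0 to 1 on leaving out a library (1 without βEedKO replicate 1 of 8 weeks). Counts for the other comparisons were 0 under every alternative run. The replicate block could not be estimated for the comparisons of age within a genotype, and it changed no other call of a member. Library size alone raised the median log2 fold change of all genes to 0.205 at 8 and 0.265 at 25 weeks and left the same 2 genes called. By the state over most of 1 kb on each side, 4 members were in L and 5 in M (Gli1, Gli2 and Hhip turning to M). By the most frequent state of its transcript starts (5 of 10), Ptch1 was in B. The causes of these shifts were not tested.

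Directions turned only for log2 fold changes that no setting called. With library size alone these were Dhh with age in WT (0.061), Hhip with age in βEedKO (0.18), and Dhh (0.13) and Ptch1 (0.0040) between HET and WT at 8 weeks. The replicate block turned Gli1 for the difference between ages (-0.40) and for HET at 8 weeks (-0.40), Dhh (0.080) and Ptch1 (0.10) for HET at 8 weeks, and Smo for HET at 25 weeks (-0.051). Hhip with age in βEedKO turned without a filter (0.0059) and in the fit of all 16 libraries (0.032), and Gli3 for the difference between ages with pooled controls (-0.75) and HET as control (-2.06). Leaving out single libraries, the ranges that crossed 0 were, for βEedKO against WT at 8 weeks, -1.001 to 2.45 for Ihh. For the difference between ages they were -0.0033 to 1.08 for Gli1, -0.39 to 0.68 for Gli3 and -1.01 to 0.86 for Dhh. With age in WT they were -0.57 to 1.30 for Dhh, -0.0325 to 0.33 for Ptch1 and -0.65 to 0.87 for Smo, and in βEedKO -0.063 to 0.72 for Dhh and -0.62 to 0.12 for Hhip. For HET at 8 weeks they were -0.14 to 1.31 for Gli1, -0.53 to 1.34 for Dhh, -0.18 to 0.16 for Ptch1 and -0.57 to 0.94 for Smo, and at 25 weeks -0.34 to 1.58 for Gli3 and -0.064 to 0.10 for Ptch1. Of 108 levels per length, 88 moved by less than 1 SD between replicates with another length or scaling. Depth limits the genes with few reads, and having 2 βEedKO libraries at 25 weeks limits every test there. The alternatives for Eed and for genes of the wider lists were chosen after seeing the data.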

Other observations

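The Polycomb stretch around a member's start also held the starts of 9 other counted genes, of which 3 passed the filter on low counts and 0 were called at either age. In the 49.6 kb stretch of Ihh, Cfap65, which starts in state M, held 19 reads in WT and 70 in βEedKO at 25 weeks (log2 fold change 1.28 ± 1.23, adjusted p = 0.636), where Ihh itself went from 2 to 91. In that of Gli1, Arhgap9, which starts in state N, gave 0.87 ± 1.27 on the log2 scale (adjusted p = 0.771), and in that of Dhh, Rhebl1, which starts in state L, gave 0.76 ± 0.508 (adjusted p = 0.459). Gm26645 in the stretch of Gli3 held 10 reads in βEedKO at 8 weeks and none in WT, and Gm26831 in that of Gli2 held none in any library.

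Taken by replicate number, βEedKO over WT for Smo was 1.58 and 3.68 in replicates 1 and 4 at 8 weeks and 5.08 and 4.04 in replicates 2 and 3 at 25 weeks. For Ptch1 these ratios were 1.12, 0.585, 1.9 and 1.37, and for Gli1 19.4, 7.1, 7.68 and 8.76. Gli3 gave 1.8 and 2.07 at 8 weeks. Whether the numbers mark shared litters is not given in the sources used here.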
